A study of Homo sapiens with 6 samples.

Results

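Small nucleolar RNA host genes are transcribed into long RNAs, mostly without a conserved protein, whose introns carry small nucleolar RNAs (snoRNAs). The set comprised the genes named SNHG with a number, together with GAS5, ZFAS1, EPB41L4A-AS1 and DANCR, and was picked by name from the deposited count tables, with counts summed over listings that share a name. It held 32 of 34644 gene names, on 36 of 38648 listings. Of the 32 genes, 30 passed the filter on low counts and were tested among 15053 genes. The data are RNA sequencing libraries of HPC, a human podocyte line of wild-type genotype. The libraries labelled PRDM16 (n = 3) came from HPC cells given a lentivirus overexpressing PRDM16, a zinc finger transcription factor, in high glucose, and the libraries labelled NC (n = 3) from HPC cells given the negative control lentivirus, also in high glucose, with 24 h named for both. High glucose was thus common to both groups, and cells in normal glucose were not analysed here. The labels name no promoter for the transgene, nor whether a group's libraries were separate cultures. P-values therefore measure the spread between samples that may be technical repeats.

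After splicing, the intron of a host gene is debranched and trimmed to the mature snoRNA, while the spliced host RNA is exported, engaged by ribosomes and often degraded by nonsense-mediated decay. Box C/D snoRNAs guide ribose methylation and box H/ACA snoRNAs guide pseudouridylation, mainly of ribosomal RNA, and small Cajal body RNAs (scaRNAs) guide the same changes on spliceosomal RNAs. Many hosts start with a cytosine followed by a run of pyrimidines, the 5′ terminal oligopyrimidine (5′TOP) start that ribosomal protein genes share, which ties their RNAs to growth signals and to the mTOR kinase. In the kidney, several of these RNAs, GAS5 among them, have been studied in cells exposed to high glucose. The libraries were made from oligo(dT)-captured RNA, so the values below are mainly those of polyadenylated host RNAs. Splicing was not measured, and some deposited exons overlap a snoRNA, as in SNHG7. Levels of the snoRNAs themselves were not analysed here.

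The libraries held 20147135, 28730146 and 41280350 counts for PRDM16 and 22460881, 27655378 and 20969179 counts for NC. The PRDM16 transcript, which checks the labels, had 11, 18 and 24 counts in the PRDM16 libraries and 0 counts in each NC library (edgeR adjusted p = 0.000132), a mean of 0.598 ± 0.042 CPM (counts scaled by library size; SD, n = 3) with PRDM16. These are few counts, so they separate the labels without showing a high level of PRDM16. NC library 2 stood apart from the rest over all genes, with a chi-square per degree of freedom of 25.6 to 62.1 against each other library, while the other pairs lay between 8.95 and 24.98. Without it, the median log2 fold change of the host genes, PRDM16 over NC, was 0.11 with 22 of 29 positive, and 13 of all genes had an edgeR adjusted p under 0.05. Among podocyte markers, PODXL averaged 113 ± 6.05 CPM in PRDM16 libraries and 121 ± 8.72 CPM in NC libraries (SD, n = 3 each), whereas NPHS1, which encodes nephrin, and WT1 were at or near 0 in both. CD2AP, an adaptor of the slit diaphragm, averaged 162 ± 16.4 CPM in PRDM16 libraries and 206 ± 44.8 CPM in NC libraries, and SYNPO, which encodes synaptopodin, 30.7 ± 1.67 and 28.0 ± 1.89 CPM. The kidney epithelial keratins KRT8 (1545 ± 88.7 CPM with PRDM16, 1291 ± 142 CPM with NC) and KRT18 (734 ± 30.3 and 623 ± 48.9 CPM) had every PRDM16 library above every NC library, as did 12.4% of all genes tested. For KRT8 the groups nearly touched, with PRDM16 library 3 at 1454 CPM and NC library 3 at 1452 CPM. The groups overlapped for the rest of the kidney epithelial list. PAX8 averaged 248 ± 23.4 CPM with PRDM16 and 238 ± 24.0 CPM with NC. EPCAM was lower with PRDM16 (2.73 ± 0.444 and 3.56 ± 0.638 CPM), and CDH1 was at 0.844 ± 0.275 and 0.862 ± 0.212 CPM. The leukocyte marker CD68 averaged 179 ± 1.92 CPM in PRDM16 libraries and 151 ± 15.1 CPM in NC libraries, also with every PRDM16 library above every NC library. The other leukocyte marker, PTPRC, was at 0.476 ± 0.0491 and 0.511 ± 0.095 CPM, with overlapping groups. Summed over each marker list, the libraries ranged over 288 to 316 CPM with PRDM16 and 324 to 407 CPM with NC for podocytes, 2425 to 2626 and 2017 to 2363 CPM for kidney epithelium, 2.29 to 2.88 and 2.09 to 2.59 CPM for endothelium, 23.8 to 27.4 and 20.8 to 26.6 CPM for mesangium and fibroblasts, and 177 to 181 and 134 to 161 CPM for leukocytes. No gene of these lists had an edgeR adjusted p under 0.05. The part of cell composition in the results was not tested, and fewer cells of a type cannot be told apart from less RNA per cell.

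In the RefSeq table, 31 of the 32 host genes span at least 1 snoRNA or scaRNA, SNHG27 being the exception. SNHG14 spans 84 of the 151 such RNAs, among them 48 named SNORD115 and 30 named SNORD116, and the other genes together hold 67, of which 38 are box C/D, 22 box H/ACA and 4 scaRNAs. Of these 67, 58 lie in introns of the deposited gene models. GAS5 spans 11, 10 of them box C/D, and SNHG1 spans 9. Examples from 3 abundant or later described hosts show the 2 architectures, with sequences from GENCODE 29 and positions on hg38. Capitals mark TGATGA and CTGA, the C and D boxes that bind the methylation proteins, in the 5 box C/D RNAs, and the ACA near the 3′ end in the box H/ACA RNA.
SNORD12 (in ZFAS1, chr20:49280683-49280772, plus strand): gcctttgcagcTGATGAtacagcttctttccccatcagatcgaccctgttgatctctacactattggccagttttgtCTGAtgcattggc
SNORD12B (in ZFAS1, chr20:49280319-49280409, plus strand): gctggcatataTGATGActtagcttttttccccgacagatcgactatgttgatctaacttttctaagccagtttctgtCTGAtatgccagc
SNORD12C (in ZFAS1, chr20:49278940-49279028, plus strand): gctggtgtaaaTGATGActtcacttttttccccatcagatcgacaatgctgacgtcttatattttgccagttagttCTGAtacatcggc
SNORD49A (in SNHG29, chr17:16440036-16440106, plus strand): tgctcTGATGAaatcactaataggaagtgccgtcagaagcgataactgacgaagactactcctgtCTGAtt
SNORD65 (in SNHG29, chr17:16441226-16441298, plus strand): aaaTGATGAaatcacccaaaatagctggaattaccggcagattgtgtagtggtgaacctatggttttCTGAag
SNORA13 (in EPB41L4A-AS1, chr5:112161485-112161617, plus strand): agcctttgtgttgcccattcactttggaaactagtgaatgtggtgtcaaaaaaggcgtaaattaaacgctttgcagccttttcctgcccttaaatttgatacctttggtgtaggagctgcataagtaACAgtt

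Starts were read from the reference to show which hosts carry a pyrimidine run or a TATA box. RefSeq promoter windows (GRCh38.p14, 300 bases) matched 28 of the 32 names. A start of C followed by 4 pyrimidines, read on the gene's strand from the annotated first base, was found in 7 of the 28 (25%), against 4.04% of 27305 promoters. TATAA on the same strand, 45 to 21 bases upstream, was found in 6 (21.4%), against 4.28% of all promoters. Both features stood together in 4 hosts (14.3%), SNHG5, ZFAS1, SNHG12 and SNHG19, against 0.0879% of all promoters. The palindrome CACGTG, an E-box of the kind MYC binds, was in 2 (7.14%) and in 7.43% of all. Their starts are shown because they carry both features, and the other windows lack at least 1 of them. Each covers 45 bases before the start and 30 from it, with TATAA and the pyrimidine run from the first transcribed base in capitals.
SNHG5 (chr6:85678704-85678778, minus strand): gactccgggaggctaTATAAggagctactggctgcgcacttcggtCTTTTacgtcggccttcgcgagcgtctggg
ZFAS1 (chr20:49278597-49278671, plus strand): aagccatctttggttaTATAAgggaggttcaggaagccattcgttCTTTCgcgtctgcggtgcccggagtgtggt
SNHG12 (chr1:28581844-28581918, minus strand): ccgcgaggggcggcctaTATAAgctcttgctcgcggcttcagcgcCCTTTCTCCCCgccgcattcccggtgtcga
SNHG19 (chr16:2155329-2155403, minus strand): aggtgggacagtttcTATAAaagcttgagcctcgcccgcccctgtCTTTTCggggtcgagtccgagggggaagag
These counts depend on the annotated first base, which equalled the deposited start for 23 of the 28. It differed for ZFAS1 and SNHG12, whose starts are printed above, for SNHG4, which has the pyrimidine start, and for SNHG17 and GAS5. GAS5 has no such start at its RefSeq first base, but 6 of its 29 GENCODE 29 transcripts begin at position 173867989 of chromosome 1, on the minus strand, with the first 30 bases printed here and the pyrimidine run in capitals.
GAS5 transcript start: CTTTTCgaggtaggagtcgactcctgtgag

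Per length, in the authors' FPKM (fragments scaled by gene length and library size), a few hosts held most of the signal. Over the 6 libraries GAS5 averaged 360 ± 52.8 FPKM (SD), ZFAS1 252 ± 37.3, SNHG1 198 ± 46.6, SNHG29 196 ± 28.1 and SNHG5 166 ± 25.5 FPKM. These 5 made up 71.2% of the summed FPKM, GAS5 alone 21.9%, and GAS5 stood at the 99.2 percentile of all tested genes. GAS5 was the highest host in all 6 libraries, and SNHG1 and SNHG29 changed places, each ahead in 3 libraries, so that this pair did not differ beyond its spread. SNHG8 followed at 84.2 ± 10.1 FPKM, SNHG6 at 62.0 ± 6.91 and SNHG15 at 48.3 ± 7.43 FPKM. SNHG17, SNHG16, EPB41L4A-AS1, SNHG7, SNHG12 and SNHG11 came next, from 36.1 down to 20.1 FPKM, then SNHG19, SNHG3, SNHG25, SNHG30 and SNHG18, from 16.5 down to 10.5, and SNHG32 and DANCR at 9.81 and 8.50 FPKM. The place of SNHG25 rests on a deposited length of 111 bases. It averaged 1.46 ± 0.313 CPM, against 10.6 ± 2.06 CPM for SNHG30 just below it. SNHG26, SNHG20, SNHG4, SNHG9 and SNHG10 lay between 6.26 and 2.24 FPKM. SNHG21, SNHG14, SNHG22 and SNHG31 were all under 1 FPKM, and SNHG14, with a deposited length of 19263 bases, had 0.781 ± 0.173 FPKM with 14.96 ± 2.80 CPM. SNHG28 had 4, 7 and 13 counts in PRDM16 libraries and 7, 6 and 5 in NC libraries, and SNHG27 had 0 counts in all 6, where 3 counts stand for 0.0727 to 0.149 CPM.

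No host gene passed the test between PRDM16 and NC. At an edgeR adjusted p under 0.05, 0 of the 30 were called, against 18 of all 15053 genes tested (0.12%), 14 of them higher (0.093%) and 4 lower (0.0266%). At an unadjusted p under 0.05, edgeR gave 4 hosts in all (16.9% of all genes), 3 higher (9.8% of all genes) and 1 lower (7.08% of all genes). DESeq2 and limma-voom each gave 4 at that level (9.12% and 14.3% of all genes) and called 0. The count at that level depended on single libraries: it was 13 of 30 without PRDM16 library 3 (19.9% of all genes), 8 without NC library 1 (27.5%), 6 without NC library 3 (18.2%), 5 of 29 without PRDM16 library 2 (8.97%), and 0 without PRDM16 library 1 (7.67%) or NC library 2 (7.55%). The estimates nevertheless leaned upward: 22 of the 30 had a positive log2 fold change, against 47.3% of all genes, with a median of 0.14 beside -0.02 over all genes. Estimates ran between -0.33 and 0.39, with a median SE of 0.16, and the smallest adjusted p was 0.251. The 3 PRDM16 libraries were each above every NC library for 0 of the 30 (12.4% of all genes) and below them for 2, SNHG14 and SNHG21 (8.7% of all genes).

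**Figure D1:**
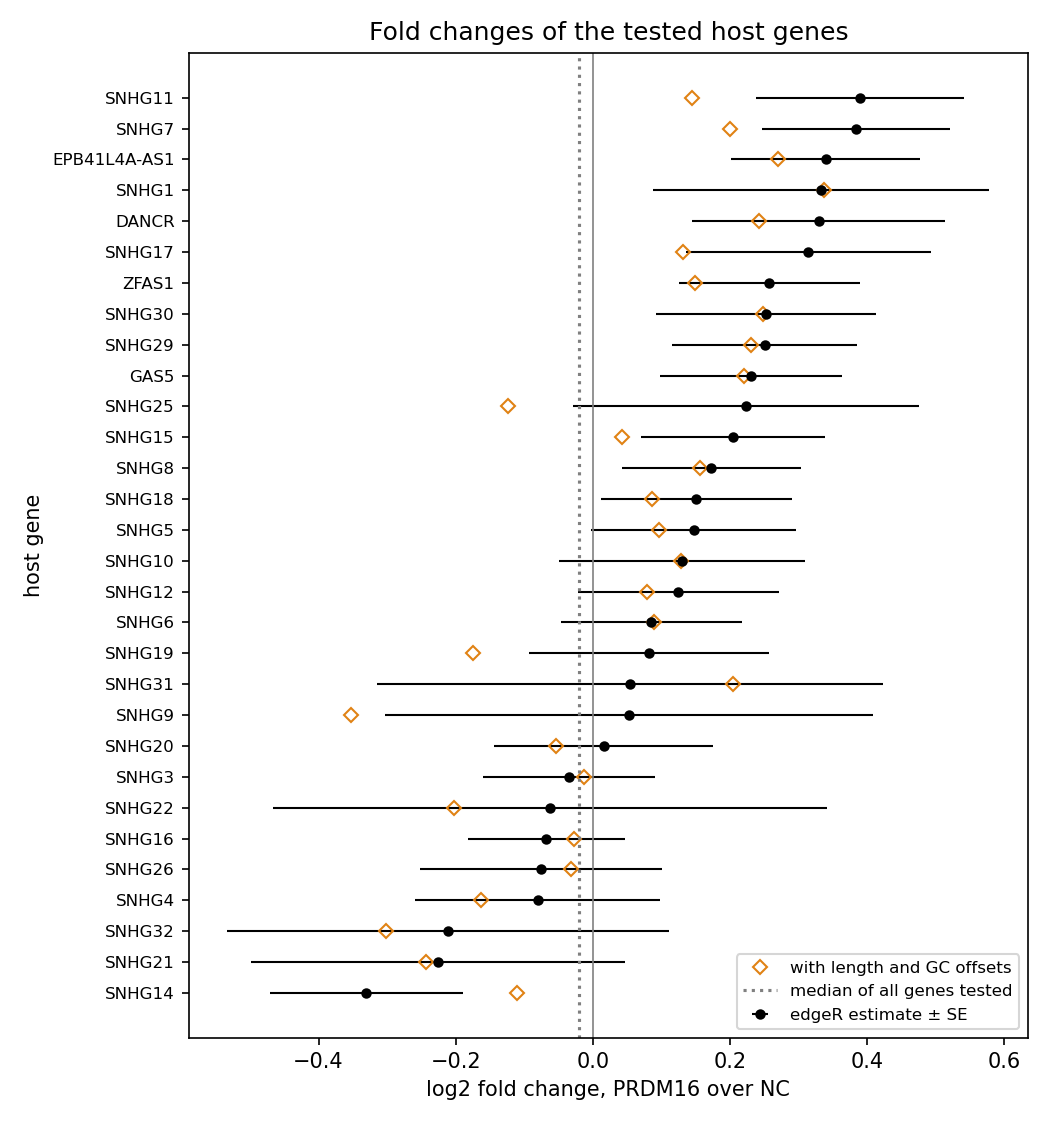
Log2 fold change of each of the 30 tested host genes, PRDM16 over NC, with its SE as a bar (black), and the same estimate with offsets for gene length and GC content (open diamonds). Points above 0 are higher with PRDM16; 22 of 30 black points lie right of 0, and the dotted line is the median of all genes at -0.02.

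Among the abundant hosts, GAS5, a growth-arrest transcript whose levels are held down by translation-coupled decay, had 407, 317 and 271 CPM in PRDM16 libraries and 311, 255 and 281 CPM in NC libraries. The groups overlapped, since the third PRDM16 library lay below 2 NC libraries. Its log2 fold change was 0.23 ± 0.13 (SE; edgeR adjusted p = 0.342), and with 1 library left out it lay between 0.06 (without PRDM16 library 1) and 0.36 (without PRDM16 library 3). ZFAS1, an antisense neighbour of ZNFX1, had 348, 269 and 234 CPM with PRDM16 and 245, 211 and 256 CPM with NC, again with the third PRDM16 library inside the NC range. Its log2 fold change was 0.26 ± 0.13 (edgeR adjusted p = 0.305), between 0.09 and 0.38 without those same libraries.

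SNHG1, host of SNORD22 and SNORD25 to SNORD31, had 413, 302 and 295 CPM in PRDM16 libraries and 363, 211 and 228 CPM in NC libraries. Here it was the first NC library that lay inside the PRDM16 range, while the other 2 NC libraries were lower than every PRDM16 library. The log2 fold change was 0.33 ± 0.25 (edgeR adjusted p = 0.479); without NC library 1 it was 0.60, and without PRDM16 library 1 it was 0.16. SNHG29 had 648, 540 and 426 CPM with PRDM16 and 446, 418 and 492 CPM with NC, with a log2 fold change of 0.25 ± 0.14 (edgeR adjusted p = 0.320), and between 0.10 (without PRDM16 library 1) and 0.39 (without PRDM16 library 3). SNHG5 had 107, 89.3 and 70.2 CPM with PRDM16 and 68.8, 75.8 and 95.6 CPM with NC, a difference within the spread of either group (log2 fold change 0.15 ± 0.15, and between -0.0041 without PRDM16 library 1 and 0.29 without NC library 3). In SNHG29, as in GAS5 and ZFAS1, PRDM16 library 1 stood highest and PRDM16 library 3 lay inside the NC range, while in SNHG5 PRDM16 library 1 alone lay outside it.

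The next 3 hosts in level carry 1 snoRNA each. SNHG8, host of SNORA24, had 65.6, 55.3 and 45.4 CPM with PRDM16 and 49.3, 43.8 and 54.3 CPM with NC (log2 fold change 0.17 ± 0.13, between 0.04 without PRDM16 library 1 and 0.30 without PRDM16 library 3). SNHG6, host of SNORD87, had 47.8, 49.2 and 39.5 CPM with PRDM16 and 36.5, 41.5 and 50.7 CPM with NC (log2 fold change 0.09 ± 0.13, between -0.030 without NC library 1 and 0.22 without NC library 3). SNHG15, host of SNORA9, had 52.0, 47.8 and 52.8 CPM with PRDM16 and 55.8, 38.002 and 38.7 CPM with NC (log2 fold change 0.20 ± 0.13, between 0.11 without NC library 2 and 0.39 without NC library 1, and 0.04 with offsets for length and GC content). The ranges of the groups overlapped for each of these genes, in SNHG15 through NC library 1, which was the highest of the 6.

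**Figure D2:**
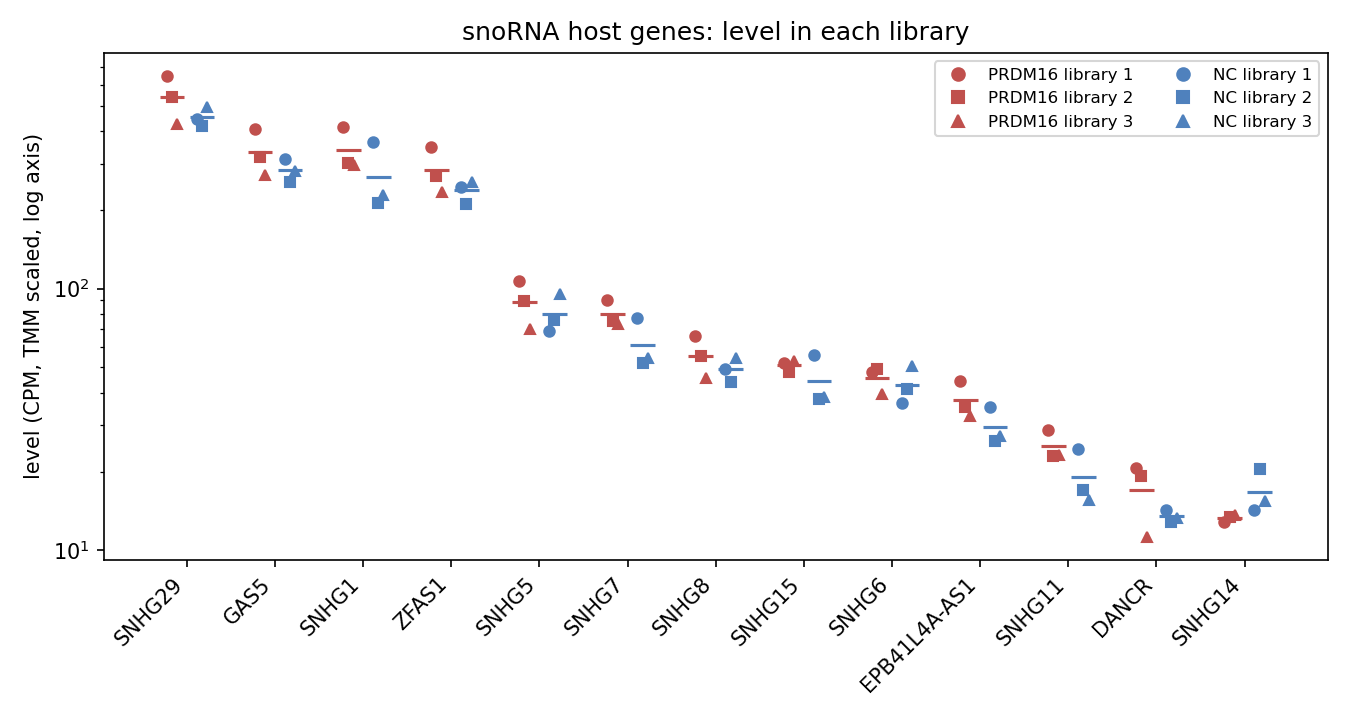
Level of 13 host genes in each library, in CPM scaled by TMM factors on a log axis, PRDM16 (red) left of NC (blue); horizontal lines are group means of 3 libraries and marker shapes are the library numbers. The groups overlap for every gene except SNHG14, where the 3 PRDM16 libraries lie below the 3 NC libraries.

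SNHG7, SNHG11, EPB41L4A-AS1 and SNHG14 had the smallest p. SNHG7, whose 2 box H/ACA RNAs, SNORA17A and SNORA17B, overlap its deposited exon, had 90.2, 75.4 and 73.5 CPM in PRDM16 libraries and 77.0, 51.8 and 54.4 CPM in NC libraries. SNHG11, host of SNORA71E and SNORA60, had 28.8, 22.9 and 23.0 CPM with PRDM16 and 24.4, 17.0 and 15.6 CPM with NC. In both, NC library 1 lay within the PRDM16 range and the other 2 NC libraries below it. The log2 fold changes were 0.38 ± 0.14 for SNHG7 (edgeR adjusted p = 0.251) and 0.39 ± 0.15 for SNHG11 (edgeR adjusted p = 0.265). With offsets for length and GC content they were 0.20 and 0.14. With 1 library left out, SNHG7 lay between 0.28 (without NC library 2) and 0.57 (without NC library 1), and SNHG11 between 0.27 (without NC library 3) and 0.59 (without NC library 1).

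EPB41L4A-AS1, host of SNORA13, the guide printed above, had 44.4, 35.4 and 32.5 CPM in PRDM16 libraries and 35.1, 26.1 and 27.3 CPM in NC libraries, with a log2 fold change of 0.34 ± 0.14 (edgeR adjusted p = 0.265), between 0.20 without PRDM16 library 1 and 0.47 without NC library 1. Again only NC library 1 reached into the PRDM16 range. DANCR, named for antagonizing differentiation in progenitor cells and host of SNORA26, had 20.6, 19.2 and 11.3 CPM with PRDM16 and 14.3, 12.8 and 13.3 CPM with NC. Here PRDM16 library 3 was the lowest of the 6 and the other 2 PRDM16 libraries the highest (log2 fold change 0.33 ± 0.18, edgeR adjusted p = 0.343; 0.18 without PRDM16 library 1 and 0.56 without PRDM16 library 3). SNHG17, which lies near SNHG11 on chromosome 20 and spans SNORA71A to SNORA71D, averaged 59.2 ± 11.1 CPM with PRDM16 and 47.6 ± 12.1 CPM with NC (SD, n = 3 each), a log2 fold change of 0.31 ± 0.18 (edgeR adjusted p = 0.356), between 0.16 without PRDM16 library 1 and 0.53 without NC library 1, and 0.13 with the offsets.

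SNHG14 was the lowest estimate of the set. It is the paternally expressed, imprinted transcript of the Prader-Willi region of chromosome 15, known for running antisense through UBE3A. It had 12.8, 13.4 and 13.7 CPM in PRDM16 libraries and 14.2, 20.4 and 15.4 CPM in NC libraries, so the groups were separate, with NC library 2 standing above the rest. The log2 fold change was -0.33 ± 0.14 (edgeR adjusted p = 0.271), -0.15 without NC library 2, -0.45 without NC library 1 and -0.11 with length and GC offsets. IPW, which shares 221 exonic bases with it on the same strand, had 4.26, 4.49 and 4.54 CPM with PRDM16 and 6.32, 7.35 and 5.03 CPM with NC, also separate groups (log2 fold change -0.50 ± 0.18, edgeR adjusted p = 0.248). SNRPN, which shares 1875 exonic bases, averaged 0.697 ± 0.159 CPM with PRDM16 and 0.825 ± 0.0424 CPM with NC. UBE3A, on the opposite strand with 0 shared exonic bases, averaged 46.2 ± 5.01 and 53.7 ± 9.11 CPM. The groups overlapped for both. They also overlapped for PWAR5 and PWAR6, on the same strand with 0 shared exonic bases (log2 fold changes -0.49 ± 0.27 and -0.24 ± 0.26). How the authors' counting assigned reads of shared bases is not given in the sources used here. SNHG21, the other host with separate groups, had 19, 26 and 35 counts in PRDM16 libraries and 24, 33 and 21 counts in NC libraries, or 0.920 ± 0.0743 and 1.06 ± 0.0646 CPM (log2 fold change -0.23 ± 0.27, edgeR adjusted p = 0.652), and 359 of its 1053 exonic bases lie opposite FSD2.

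The remaining hosts were as follows. SNHG30 (0.25), SNHG25 (0.22), SNHG18 (0.15), SNHG10 (0.13), SNHG12 (0.12), SNHG19 (0.08), SNHG31 (0.05), SNHG9 (0.05) and SNHG20 (0.02) had positive log2 fold changes with an edgeR adjusted p of at least 0.380. SNHG3 (-0.04), SNHG22 (-0.06), SNHG16 (-0.07), SNHG26 (-0.08), SNHG4 (-0.08) and SNHG32 (-0.21) had negative ones, with an edgeR adjusted p of at least 0.737. SNHG16, which carries SNORD1A, SNORD1B and SNORD1C, had 84.2, 90.2 and 78.1 CPM with PRDM16 and 88.6, 87.4 and 88.5 CPM with NC, so that all 3 NC libraries lay within the PRDM16 range. Those with few counts were imprecise, as in SNHG9, with 15, 23 and 23 counts with PRDM16 and 26, 14 and 9 with NC.

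Several of these share bases with a neighbour. SNHG3 shares 151 bases with RCC1, SNHG4 252 with MATR3 and SNHG20 488 with SEC14L1, each on the same strand, and per length MATR3, a nuclear matrix protein gene, was at 31.6 ± 6.57 FPKM over the 6 libraries (SD), against 3.23 ± 0.501 FPKM for SNHG4. On the opposite strand, SNHG6 overlaps MCMDC2 by 425 of its 711 exonic bases, SNHG29 overlaps LRRC75A by 452 and GAS5 overlaps ZBTB37 by 74. Without a stated strand setting, reads over such bases cannot be assigned to either gene with certainty; per length MCMDC2 was at 0.176 ± 0.0385 FPKM over the 6 libraries, far below SNHG6 at 62.0 ± 6.91 FPKM.

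SNHG32 is listed at 5 places, 1 on chromosome 6 and 4 on alternate haplotypes of its region. The fourth listing had 26, 33 and 49 counts in PRDM16 libraries and 21, 33 and 190 in NC libraries, and the fifth 123, 153 and 228 counts in PRDM16 libraries and 117, 136 and 93 in NC libraries. The listing on chromosome 6 itself had 1, 1 and 1 counts with PRDM16 and 1, 3 and 1 with NC. In NC library 3 the fourth listing held 64.8% of the SNHG32 counts, against 14.1% to 17.4% in the other 5 libraries. The summed gene had a log2 fold change of -0.21, which was 0.25 without NC library 3, and the fifth listing alone had 0.28 (edgeR adjusted p of the summed gene = 0.737).

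**Figure D3:**
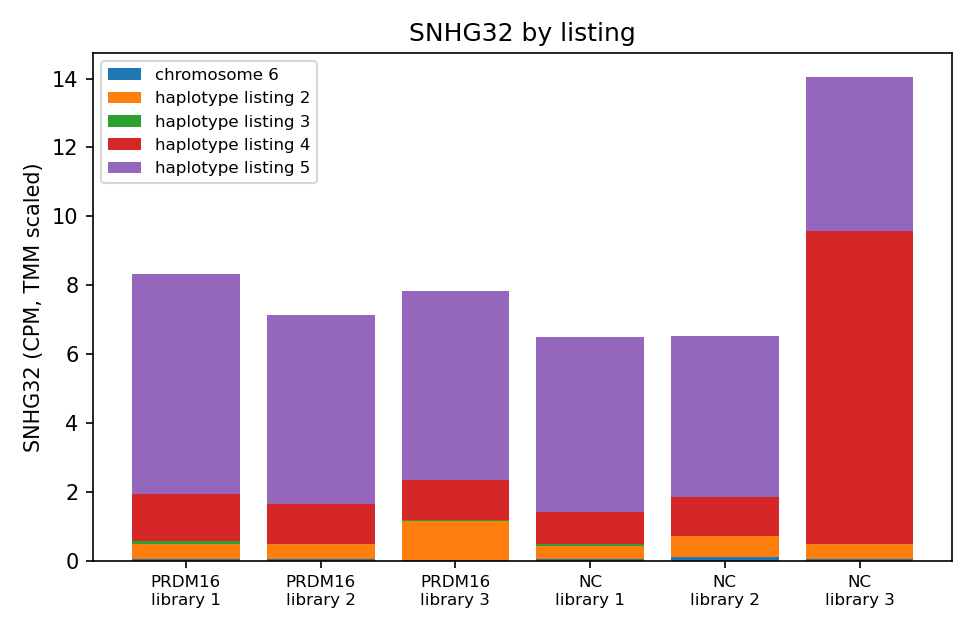
SNHG32 level in CPM (scaled by TMM factors) in each library, PRDM16 left of NC, stacked by the 5 places at which the gene is listed. The total is 14.04 CPM in NC library 3 and between 6.498 and 8.31 CPM in the other 5 libraries, and the excess sits in the fourth listing.

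The hosts were also compared as a sum. The summed level of the 32 hosts was 2611, 2128 and 1871 CPM in PRDM16 libraries and 2057, 1687 and 1901 CPM in NC libraries, with means of 2203 ± 375 and 1882 ± 186 CPM (SD, n = 3 each), a ratio of 1.17. The groups overlapped, and the spread within PRDM16 exceeded the difference between the means. As a share of all counts the hosts took 0.249%, 0.206% and 0.189% with PRDM16 and 0.210%, 0.178% and 0.189% with NC. The median deviation of the 30 tested hosts from their own means was 0.20, 0.07 and -0.12 on the log2 scale in PRDM16 libraries and -0.01, -0.23 and -0.04 in NC libraries, while over all genes it stayed between -0.02 and 0.01. PRDM16 library 1 was the highest of its group for 20 of the 30 hosts, against 35.8% of all genes. Without it, the median log2 fold change of the hosts was 0.05; without NC library 3 it was 0.22.

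**Figure D4:**
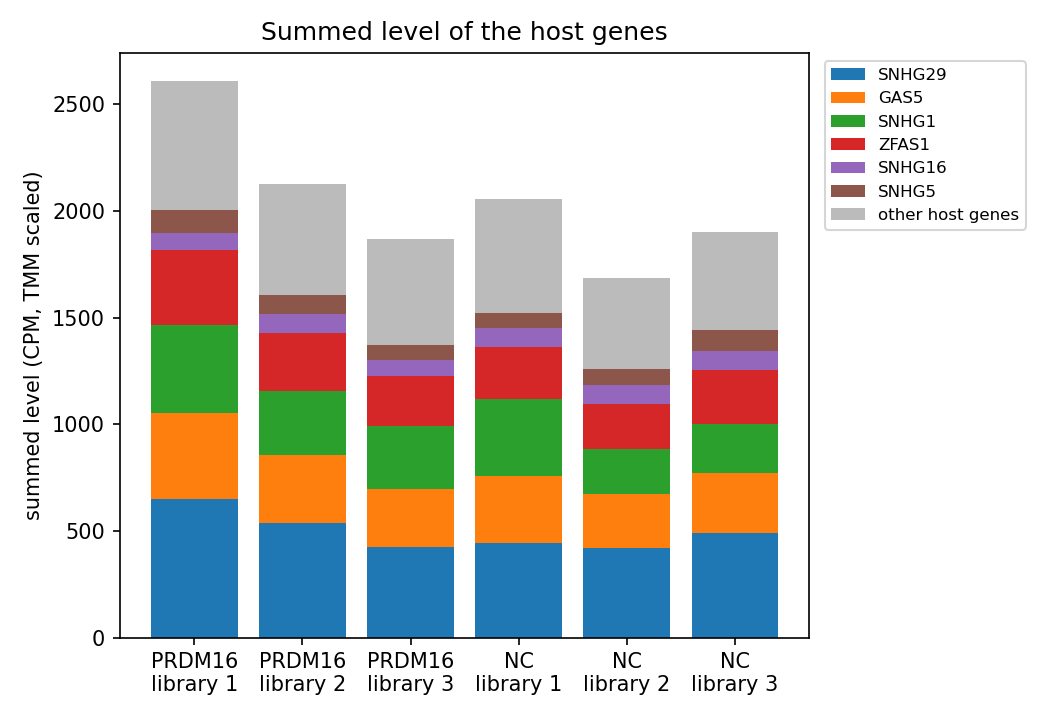
Summed level of the host genes in each library, in CPM scaled by TMM factors, PRDM16 left of NC, stacked by the 6 hosts with the most CPM and the rest. PRDM16 library 1 reaches 2611 CPM and NC library 2 has the lowest sum at 1687 CPM, with the other 4 libraries between.

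For the 22 hosts with a positive estimate, PRDM16 library 3 was the lowest of its group for 15. NC library 1 and NC library 3 were the highest of theirs for 12 and 8. Shares over all genes were not computed for these counts, and such a position does not by itself make the groups overlap. Of the 30 tested hosts, 14 had NC library 1 as the highest of its group, against 35.0% of all genes. Over all 30 tested hosts, every PRDM16 library was above the NC ones for 1 host without PRDM16 library 1 (14.3% of all genes in the same setting), 0 without PRDM16 library 2 (15.5%), 7 without PRDM16 library 3 (20.6%), 8 without NC library 1 (23.9%), 0 without NC library 2 (13.7%) and 2 without NC library 3 (17.0%).

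**Figure D5:**
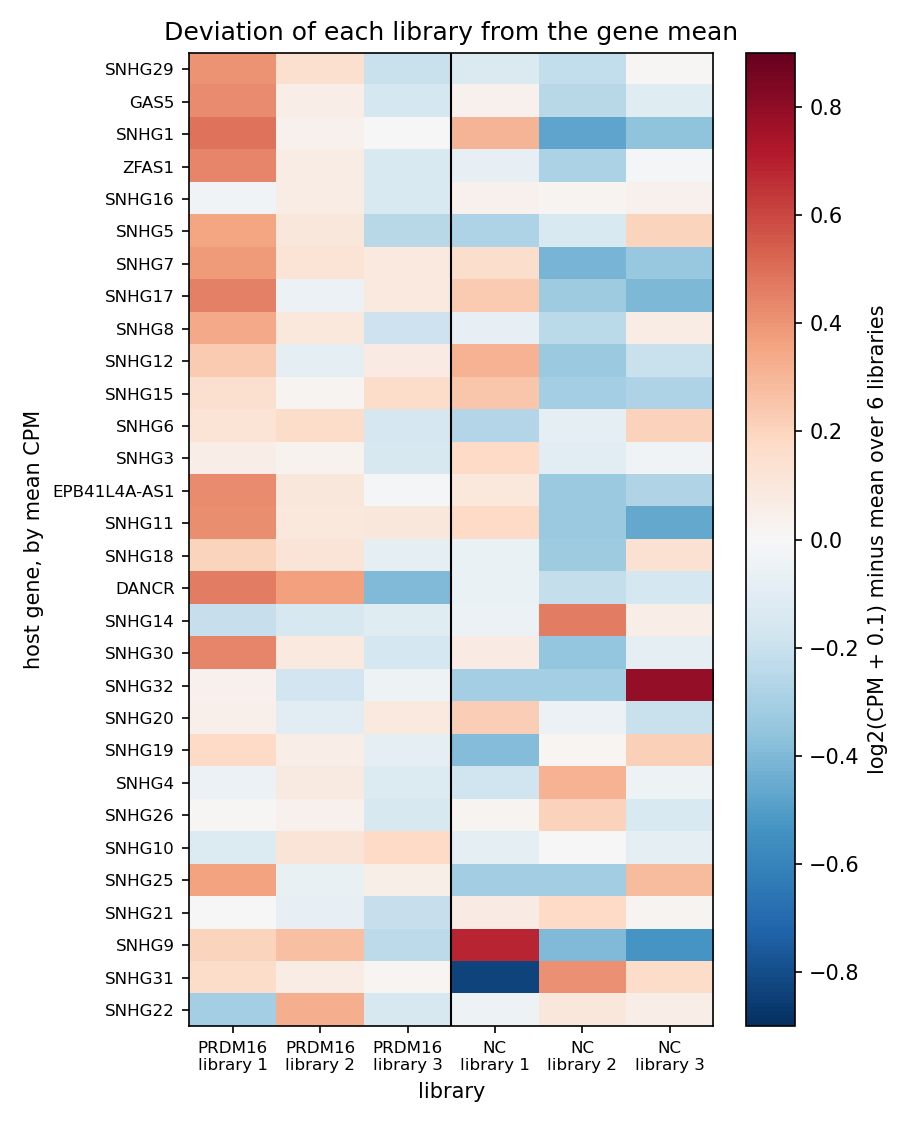
Deviation of each library from the mean of each host gene over the 6 libraries, as log2(CPM + 0.1), for the 30 tested hosts ordered by mean CPM, PRDM16 libraries left of the black line and NC libraries right of it. Red is above and blue below the mean; PRDM16 library 1 is mostly red and NC library 2 mostly blue among the abundant hosts, SNHG14 is the reverse, and SNHG32 in NC library 3 stands out.

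Groupings by what the hosts carry are given as descriptions. By level, 16 of 19 hosts with at least 10 CPM had a positive estimate (median 0.23), and 6 of 11 below it (median 0.02). Of the 11 hosts with box H/ACA RNAs only, 9 were positive (median 0.20), as were 9 of the 13 with box C/D RNAs only (median 0.15), both of those with each kind, GAS5 and SNHG12, and 2 of the 4 with a scaRNA, SNHG10, SNHG20, SNHG21 and SNHG22 (median -0.02). By the RefSeq first base, 5 of 7 with the pyrimidine start were positive (median 0.12), and 13 of 19 without it (median 0.17), GAS5 counted among the 19.

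Fold changes across all genes followed GC content and length. Over 14075 genes Spearman's rho of the log2 fold change was 0.641 with GC content (0.441 without NC library 2), and over all genes tested it was -0.398 with length; genes of a library share its depth and chemistry, so these are descriptions. The tested hosts had a mean GC content of 49.4%, against 50.7% in all genes, and a median length of 1334.5 bases, against 4080. With offsets for both, the median of the hosts was 0.09 beside 0.01 for all genes, 18 of 30 were positive and 0 had an unadjusted p under 0.05.

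Genes of the snoRNA pathway and other hosts gave 0 calls in every list, in the same edgeR fit. Of the 23 ribosomal protein genes that carry snoRNAs in their introns, 22 had a positive estimate (median 0.17, and 0.10 with the offsets) and 4, all of them higher, a p under 0.05 before adjustment, where 47.3% of all genes were positive and 9.8% higher at that level. Their summed level was 24814, 23936 and 19023 CPM with PRDM16 and 19376, 18278 and 21820 CPM with NC, so that, as in the long non-coding hosts, PRDM16 library 1 was highest and NC library 2 lowest. RPL13 had 1212 ± 160 CPM with PRDM16 and 954 ± 76.4 CPM with NC, a log2 fold change of 0.35 ± 0.13 (edgeR adjusted p = 0.258). The 14 tested protein-coding hosts of other kinds had 5 positive estimates and a median of -0.05 (-0.015 with the offsets). Nucleolin (NCL) was at 256 ± 6.66 CPM with PRDM16 and 314 ± 53.2 CPM with NC (log2 fold change -0.30, edgeR adjusted p = 0.267).

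The 4 box C/D core proteins had a median of 0.12 with 3 positive, SNU13 at 0.24 ± 0.12, and the 4 box H/ACA core proteins a median of 0.10 with 2 positive. Of the H/ACA proteins, NOP10 and NHP2, small subunits of the pseudouridylation particle, had 0.33 ± 0.12 and 0.30 ± 0.12 (edgeR adjusted p = 0.251 and 0.265), and DKC1, the pseudouridine synthase itself, -0.15 ± 0.11. The 11 assembly factors had 4 positive estimates and a median of -0.11, with ZNHIT6 at -0.37 ± 0.13 (edgeR adjusted p = 0.250) and PIH1D1 at 0.29 ± 0.12. The 15 factors of nonsense-mediated decay, the route that clears many spliced hosts, had 6 positive estimates and a median of -0.03, with SMG9 at 0.28 ± 0.12 and the kinase SMG1 at -0.30 ± 0.14. Among 8 regulators of 5′TOP RNAs and MYC partners, EIF4EBP1, the repressor of cap-dependent translation that mTOR inactivates, averaged 248 ± 24.3 CPM with PRDM16 and 187 ± 25.8 CPM with NC (log2 fold change 0.41 ± 0.12, edgeR adjusted p = 0.192). MYC averaged 109 ± 6.57 CPM with PRDM16 and 104 ± 18.2 CPM with NC, within its spread, and the list had 5 positive estimates and a median of 0.04. With offsets for length and GC content, the medians took the other sign in several lists. They were -0.02 for the box C/D proteins, -0.01 for the box H/ACA proteins and 0.03 for the assembly factors. The decay factors had -0.0006 and the regulators 0.04 with these offsets.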

How the data were processed

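Total RNA was captured on oligo(dT) beads, fragmented and copied from random hexamers, per the labels' protocols. Each deposited table holds raw counts, TPM and FPKM per gene, per the file headers; per the submitters' processing notes the genome was hg38. For aligner, counter and strand setting nothing is given in the sources used. The lines of 7 genes, broken in the deposited tables, were rejoined, and counts were summed by gene name. The authors' FPKM served for levels between genes, and their TPM were used only to check the tables. Groups came from the sample titles. Tests used the quasi-likelihood test of edgeR 4.0.16 (R 4.3.3; TMM, robust, minimum count 10, minimum total 15) with Benjamini-Hochberg adjustment over all 15053 genes; limma-voom (limma 3.58.1) and DESeq2 1.42.0 were alternatives. The edgeR step was run on simulated counts with a common dispersion and no effect of GC content or length. That run therefore does not cover these features of the data. The SE of an edgeR estimate was derived from its F statistic, as the size of the log2 fold change over the square root of F. CPM are scaled by TMM factors, and deviations use log2(CPM + 0.1). Offsets were natural splines (5 degrees of freedom) of length and GENCODE 29 GC content. SnoRNA positions came from RefSeq and carry no strand. Chi-square per degree of freedom between libraries was 8.95 to 62.1, more than counting error alone would give. The smallest value lay across the groups, between PRDM16 library 3 and NC library 1. These values cannot tell separate cultures from technical repeats. Each library was treated as 1 sample, and floors of 3 counts cover counting error only. Values per library are given for the 8 hosts with the highest mean FPKM and the 8 with the smallest p. Members and lists were chosen with earlier results of these data known. Not every marker gene is reported here.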

Additional observations from a re-analysis of the deposited data

How the results depend on the processing

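No host gene passed in any of the 14 alternatives, and the median log2 fold change of the hosts lay between 0.05 (without PRDM16 library 1) and 0.22 (without NC library 3). Over all genes, 18 were called, against 47 with DESeq2, 4 with limma-voom, 11 with RLE size factors, 114 with no count filter, 10 with each listing as its own row, 5 with length and GC offsets and 5 with those and the replicate block; leaving out each library in turn gave 13 to 148. The summed level had a ratio of 1.17, against 1.11 in FPKM and 1.12 on plain library totals. At an unadjusted p under 0.05 stood 10 of 31 hosts with no count filter (13.8% of all genes), 6 of 30 with the replicate block (13.8%), 0 with offsets (6.64%), 3 with both (5.75%) and 4 with RLE size factors (16.3%) or each listing as its own row (16%). Same-numbered libraries deviated together with r of 0.12, -0.12 and -0.15, and unlike-numbered ones with r between -0.11 and 0.24. With deviations centred within groups of 3 libraries, these values cannot decide whether the numbers mark pairs. The replicate block gave 22 calls over all genes and a host median of 0.15. Of the 30 hosts, 18 kept their sign in every setting, and 391 of 418 estimates had the sign of the first fit. The other sign appeared with length and GC offsets for SNHG19 (-0.18), SNHG25 (-0.12), SNHG20 (-0.054) and SNHG9 (-0.35), and with the replicate block added to them for SNHG19 (-0.16), SNHG25 (-0.13), SNHG20 (-0.048) and SNHG9 (-0.26). It also appeared with each listing as its own row for SNHG32 (0.28). With 1 library left out, estimates ran from -0.083 to 0.22 for SNHG19, -0.071 to 0.12 for SNHG20, -0.13 to 0.049 for SNHG22, -0.15 to 0.028 for SNHG26, -0.085 to 0.037 for SNHG3, -0.28 to 0.41 for SNHG31, -0.41 to 0.25 for SNHG32, -0.20 to 0.092 for SNHG4, -0.0041 to 0.29 for SNHG5, -0.030 to 0.22 for SNHG6 and -0.17 to 0.59 for SNHG9. Without a change of sign they ran from 0.06 to 0.21 for SNHG10, 0.0049 to 0.33 for SNHG12, -0.12 to -0.02 for SNHG16, 0.04 to 0.27 for SNHG18, -0.27 to -0.15 for SNHG21, 0.10 to 0.46 for SNHG25 and 0.08 to 0.39 for SNHG30. The cause was not tested. With 3 libraries a group, changes of the size seen here have SEs of about 0.16, and hosts under 1 CPM are limited by their counts.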
